A study of Mus musculus with 48 samples.

Results

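The genes described here are the xenobiotic cytochrome P450s of mouse liver, the flavin-containing monooxygenases *Fmo1* and *Fmo5*, and the receptors that regulate them. They were taken from a list of 41 genes by symbol, older symbols included, and each gene was read from the probe set of 1 gene with the highest mean over all arrays. Of the 41 listed genes, 37 were found among the 17098 genes with such a probe set, and *Cyp2c44* was found under its current symbol *Cyp2c23*. *Cyp2a4*, *Cyp2c40*, *Cyp2c54* and *Por* were not analysed here. The median over the probe set means was 4.19 on the log2 scale. Of the 37 genes, 34 were brighter than that and *Cyp1a1*, *Cyp2u1* and *Cyp3a16* were not.

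Liver RNA was measured on 24 arrays, 1 per mouse, at 11 weeks of age, in mice of an F1 C57BL6J/FVB background kept on AIN93G pellets. *Ercc1* Δ/- mice, which carry 1 null allele and 1 truncated allele of a subunit of a DNA repair nuclease and age fast, formed 3 groups. Those named Control (n = 5) ate the pellets freely, those named Rapa 14 ppm (n = 4) ate pellets with encapsulated rapamycin at that dose, and those named DR 30% (n = 5) were given 30% less food. WT littermates formed 2 groups, WT-Control (n = 5) with free access and WT-DR (n = 5) on the same restriction. Restriction began at 7 weeks of age and reached 30% at 9 weeks, with food given just before the dark period, and the labels place the start of rapamycin at either 4 or 8 weeks without saying which holds for the liver samples. The deletion is constitutive and no group of WT mice received rapamycin.

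Cytochrome P450s are haem enzymes in the membrane of the endoplasmic reticulum that oxidise drugs, toxins, steroids and fatty acids, and the liver holds most of those that act on foreign compounds. Their genes are switched by ligand-activated transcription factors. The constitutive androstane receptor CAR, encoded by *Nr1i3*, drives *Cyp2b10* and several *Cyp2c* genes, the pregnane X receptor PXR, encoded by *Nr1i2*, drives *Cyp3a* genes, and the aryl hydrocarbon receptor, encoded by *Ahr*, drives *Cyp1a* genes. Many of these genes also differ between male and female mice through the pattern of growth hormone release, and several are expressed in hepatocytes around the central vein. Flavin-containing monooxygenases oxidise nitrogen and sulphur atoms of foreign compounds and need no haem.

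Values are log2 intensities, so a difference of 1 is a doubling in signal, and a level of 1 probe set is not set against that of another. A gene was called when limma gave a false discovery rate under 0.05 over all 45141 probe sets and the fold change was at least 1.5. The genotype labels were checked with *Ercc1*, which was at 6.57 to 6.85 in WT-Control, 5.99 to 6.46 in WT-DR and 4.77 to 5.47 in the 10 Control and DR 30% mice, with Rapa 14 ppm at 5.01 to 5.28. *Eif2s3y*, a Y-linked gene, was detected in every mouse (9.65 to 10.24) and *Xist* was low throughout (3.68 to 4.35), which is the pattern of male mice. The medians of the arrays lay between 4.16 and 4.21. In bulk liver, fewer cells of a type and less RNA per cell cannot be told apart, and the summed level of the 9 measured hepatocyte markers was 16.92 to 17.01 over all groups. A summed level is the log2 of the sum of the unlogged signals, so the brightest probe sets weigh most in it. The titles of the rapamycin arrays lack a re-analysis mark that those of the other groups carry, and 45 spike-in control probe sets averaged 7.50 to 7.58 on them, 7.51 to 7.66 in WT-DR, 7.59 to 7.65 in DR 30%, 7.64 to 7.74 in WT-Control and 7.61 to 7.75 in Control. The rapamycin arrays thus lay below Control, WT-Control and DR 30% but overlapped with WT-DR, and any batch that the mark stands for cannot be told apart from rapamycin.

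The *Cyp2c* genes gave the clearest differences, and the promoters of 5 of them are shown because genes with similar starts moved differently. RefSeq promoter sequences (GRCm38.p6, 250 bases before to 50 bases after the start) were matched for 31 of the 37 genes. *Cyp2c37* and *Cyp2c50* lie on the plus strand at chr19:39992174-39992473 and chr19:40089429-40089728, and capitals mark the bases that are not identical in the alignment of the pair.
Cyp2c37: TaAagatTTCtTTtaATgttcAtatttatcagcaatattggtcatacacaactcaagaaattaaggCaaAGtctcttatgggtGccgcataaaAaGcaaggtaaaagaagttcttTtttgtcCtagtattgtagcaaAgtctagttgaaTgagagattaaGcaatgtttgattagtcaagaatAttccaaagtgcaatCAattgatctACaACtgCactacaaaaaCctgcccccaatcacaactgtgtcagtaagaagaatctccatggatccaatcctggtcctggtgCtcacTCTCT
Cyp2c50: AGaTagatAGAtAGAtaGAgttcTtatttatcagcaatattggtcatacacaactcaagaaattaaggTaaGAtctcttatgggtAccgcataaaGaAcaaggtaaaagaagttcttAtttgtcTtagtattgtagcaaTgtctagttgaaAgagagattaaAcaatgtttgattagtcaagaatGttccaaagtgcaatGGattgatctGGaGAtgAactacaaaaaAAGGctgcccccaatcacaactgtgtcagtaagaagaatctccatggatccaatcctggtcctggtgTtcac
These windows were identical at 264 of 305 aligned columns, or 86.6%, with 31 mismatches and 10 gap columns. *Cyp2c37* was called higher in both restriction comparisons below and *Cyp2c50* in none.

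The second set holds *Cyp2c38* (chr19:39463026-39463325, minus strand), *Cyp2c39* (chr19:39347096-39347395, plus strand) and *Cyp2c29* (chr19:39286835-39287134, plus strand). Capitals mark any match, on either strand, to the nuclear receptor half-site AGGTCA, a loose D-box pattern TTANGTAA, or the TATA box TATAAA. In the D-box pattern N stands for any base.
Cyp2c38: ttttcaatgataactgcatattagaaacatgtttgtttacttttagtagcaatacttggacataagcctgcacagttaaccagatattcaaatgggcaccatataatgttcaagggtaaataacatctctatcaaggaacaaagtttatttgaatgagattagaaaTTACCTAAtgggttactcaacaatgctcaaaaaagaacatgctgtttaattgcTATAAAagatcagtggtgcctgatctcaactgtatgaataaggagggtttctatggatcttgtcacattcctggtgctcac
Cyp2c39: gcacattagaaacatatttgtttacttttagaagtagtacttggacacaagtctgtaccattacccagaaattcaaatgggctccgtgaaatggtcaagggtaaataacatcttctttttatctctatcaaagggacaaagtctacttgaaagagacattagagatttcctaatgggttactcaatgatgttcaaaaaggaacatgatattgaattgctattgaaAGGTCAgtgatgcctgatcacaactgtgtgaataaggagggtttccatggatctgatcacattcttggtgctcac
Cyp2c29: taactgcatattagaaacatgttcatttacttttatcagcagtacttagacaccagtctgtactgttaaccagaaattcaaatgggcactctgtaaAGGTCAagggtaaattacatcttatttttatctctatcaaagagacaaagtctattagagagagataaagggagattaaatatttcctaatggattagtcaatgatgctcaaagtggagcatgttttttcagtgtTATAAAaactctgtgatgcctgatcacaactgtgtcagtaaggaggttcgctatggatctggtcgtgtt
The window of *Cyp2c39* was 78.1% identical to that of *Cyp2c38* and 75.7% identical to that of *Cyp2c29*, and the windows of *Cyp2c29* and *Cyp2c38* shared 70.8%. RefSeq gives *Cyp2c39* a second start further along the chromosome, which is not shown. The loose D-box pattern occurred in 2.32% of all 32851 promoters and, among these genes, in *Cyp2c38*, where it lies 84 bases before the start. That match is TTACCTAA, which has G at the open base when read on the other strand. AGGTCA occurred in 16.3% of promoters and in 9 of the 31 genes, and TATAAA in 13.6% of promoters and in 18 of the 31 genes. The HNF4A letters CAAAGTCCA were in 0.475% of promoters and in *Cyp2c70*, *Cyp3a11*, *Cyp3a16* and *Cyp3a41a*. GCGTG, the core bound by the aryl hydrocarbon receptor, was in 32.4% of promoters and in 5 of the 31 genes, and the STAT5 letters TTCNNNGAA in 8.3% and in none of them. All motifs were searched on both strands. The capitals of TATAAA and AGGTCA do not overlap in these windows. A match is a description of letters and not a site of binding.

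Dietary restriction was first compared with free feeding within each genotype, to describe which of these genes respond to 30% less food. In *Ercc1* Δ/- mice, 9 genes rose and 4 fell, against 1.85% and 1.22% of all genes that rose or fell (n = 17098). In WT mice, 9 rose and 8 fell, against 2.85% and 3.52%. The 37 genes thus held a higher share of called genes than the array as a whole, at 24.3% higher and 10.8% lower in *Ercc1* Δ/- mice and 24.3% and 21.6% in WT mice. Their median change was 0.20 on the log2 scale against -0.01 for all genes in *Ercc1* Δ/- mice, and 0.02 against -0.03 in WT mice, while the median size of the change was 0.36 against 0.11 and 0.56 against 0.13. The 37 genes were chosen with earlier results of these data known, and most are brighter than the median probe set. Their excess over all genes is therefore not independent evidence. The groups of the 2 comparisons share no mouse. *Cyp2a5*, *Cyp2c37*, *Cyp2c38*, *Cyp2c39*, *Cyp2g1* and *Cyp3a44* rose in both genotypes and *Cyp1a2*, *Cyp2j5*, *Cyp4f14* and *Cyp4v3* fell in both. These 10 were 76.9% of the genes called in *Ercc1* Δ/- mice and 58.8% of those called in WT mice, and no gene was called in opposite directions. The matching shares among all called genes of the array were not computed. This overlap therefore cannot be called particular to the 37 genes. Without DR 30% mouse 362, limma called 9 genes higher and 0 lower in *Ercc1* Δ/- mice, so that none of the 4 falls shared with WT mice was kept. *Cyp2j5*, *Cyp4f14* and *Cyp4v3* then still passed the false discovery rate (adjusted p = 0.00297, 0.00251 and 0.00551) at under 1.5-fold, and *Cyp1a2* did not (adjusted p = 0.0625). With all mice, the second probe sets of *Cyp2j5* and *Cyp4v3* were also called lower in *Ercc1* Δ/- mice, at -1.21 (adjusted p = 1.38e-05) and -0.92 (adjusted p = 6.79e-04). Their values without mouse 362 are not given here, and *Cyp1a2* and *Cyp4f14* have no second probe set. Without Control mouse 325, 9 genes rose and 2 fell. The sign of the change was the same in 31 of 37 genes (83.8%), against 67.5% of all genes.

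**Figure D1:**
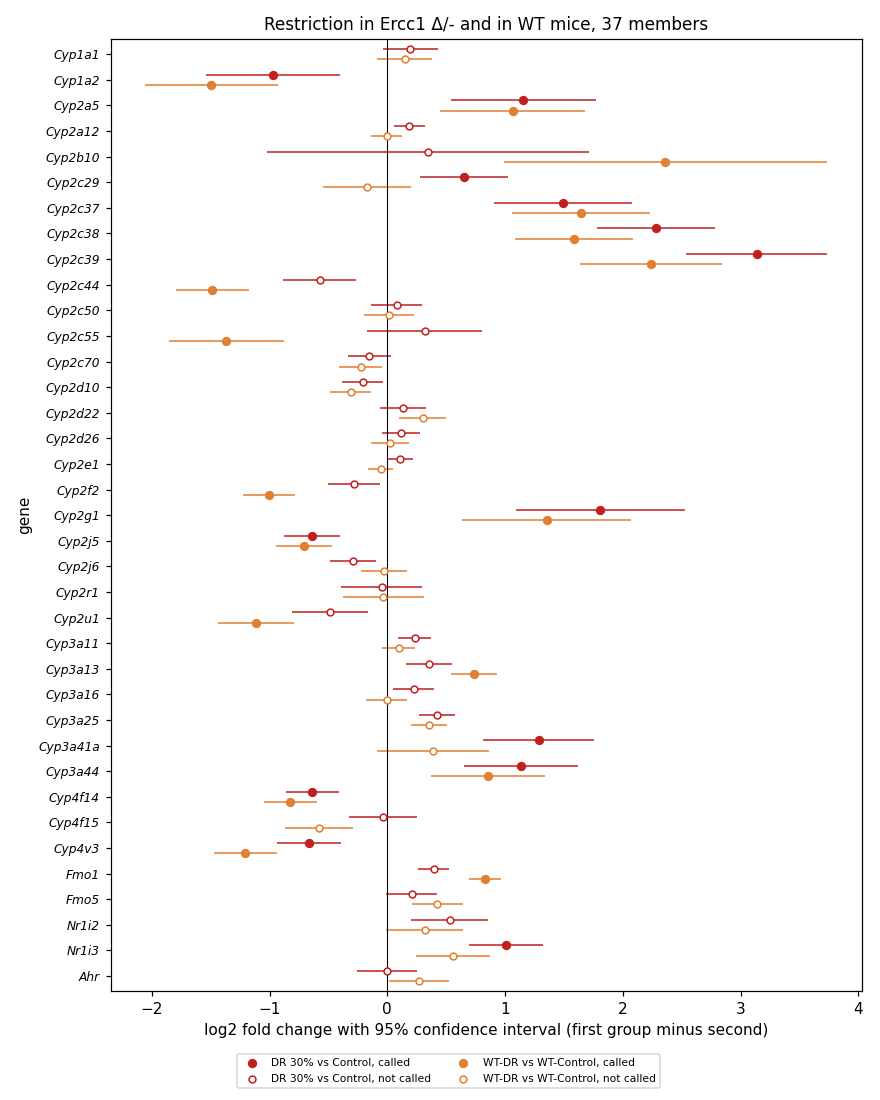
Log2 fold change with its 95% confidence interval (x axis) for each of the 37 genes (y axis), in red for DR 30% vs Control and in orange for WT-DR vs WT-Control, with filled points for called genes. *Cyp2c39* has the largest increase in *Ercc1* Δ/- mice (3.14), while *Cyp2c44*, *Cyp2c55* and *Cyp2f2* are called lower in WT mice and not called in *Ercc1* Δ/- mice.

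Of the regulators, *Nr1i3*, which encodes CAR, was at 8.60, 8.15, 9.16, 8.86 and 8.80 in the Control mice and at 9.68, 9.66, 9.91, 9.60 and 9.75 in the DR 30% mice, with mice listed here and below in the order of their animal numbers. Its values did not overlap between these groups, and it rose by 1.01 (SE 0.15, adjusted p = 1.8e-04), a factor of 2.01. In WT mice it was at 9.22, 9.25, 8.92, 9.01 and 8.78 without restriction and at 9.80, 9.76, 9.68, 9.02 and 9.70 with it, a log2 fold change of 0.56 (SE 0.15, adjusted p = 0.0113) that passed the false discovery rate but, at a factor of 1.47, missed the fold threshold. *Nr1i2*, which encodes PXR, had means of 7.82 ± 0.15 (SD, n = 5) in Control, 8.35 ± 0.25 (SD, n = 5) in DR 30%, 8.29 ± 0.22 (SD, n = 5) in WT-Control and 8.61 ± 0.27 (SD, n = 5) in WT-DR. Its log2 fold change was 0.53 (SE 0.16, adjusted p = 0.0395) with restriction in *Ercc1* Δ/- mice, which is a factor of 1.44 and under the fold threshold, and 0.32 (SE 0.16, adjusted p = 0.182) in WT mice. Its second probe set was called higher in *Ercc1* Δ/- mice, at 0.67 (adjusted p = 0.00722), and not in WT mice, at 0.17 (adjusted p = 0.503), so the call for PXR depends on the probe set. *Ahr*, the receptor for dioxins and other planar aromatics, had a log2 fold change of -0.001 (SE 0.12, adjusted p = 0.998) in *Ercc1* Δ/- mice and 0.27 (SE 0.12, adjusted p = 0.133) in WT mice.

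*Cyp2c39*, a retinoic acid hydroxylase in mice, and *Cyp2c38* showed the largest increases of the 37 genes in *Ercc1* Δ/- mice. *Cyp2c39* was at 8.15, 6.90, 7.05, 7.12 and 8.11 in Control and at 11.10, 10.58, 11.02, 9.69 and 10.63 in DR 30%. In WT-Control it was at 8.58, 9.43, 9.47, 8.84 and 9.15 and in WT-DR at 11.24, 11.10, 11.51, 11.45 and 11.36. Every restricted mouse lay above every freely fed mouse of its genotype, and the gene rose by 3.14 (SE 0.29, adjusted p = 3.2e-07) or 8.8-fold in *Ercc1* Δ/- mice and by 2.24 (SE 0.29, adjusted p = 7.7e-06) or 4.71-fold in WT mice. *Cyp2c38* was at 8.29, 7.04, 7.34, 7.58 and 7.86 in Control, at 10.18, 9.79, 10.27, 9.26 and 10.02 in DR 30%, at 8.90, 9.31, 9.43, 8.89 and 9.22 in WT-Control and at 10.86, 10.17, 10.78, 11.01 and 10.85 in WT-DR. The groups again did not overlap within a genotype, with increases of 2.28 (SE 0.24, adjusted p = 2.7e-06) and of 1.58 (SE 0.24, adjusted p = 5.8e-05). The interaction, which is the response in *Ercc1* Δ/- mice less that in WT mice, was 0.90 (SE 0.41, adjusted p = 0.326) for *Cyp2c39* and 0.70 (SE 0.34, adjusted p = 0.37) for *Cyp2c38*.

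*Cyp2c37*, an arachidonic acid hydroxylase, was at 10.54, 9.05, 10.29, 10.04 and 10.86 in Control and 11.75, 11.60, 12.06, 11.41 and 11.42 in DR 30%. In WT mice it was at 10.64, 10.99, 10.53, 10.35 and 9.68 without restriction and 12.34, 11.82, 11.77, 11.97 and 12.53 with it. It rose by 1.49 (SE 0.28, adjusted p = 0.00158) in *Ercc1* Δ/- mice and by 1.65 (SE 0.28, adjusted p = 2.2e-04) in WT mice, with no overlap in either genotype. *Cyp2c50*, whose promoter is shown above beside that of *Cyp2c37*, ran from 12.46 to 13.14 over all 24 mice and had log2 fold changes of 0.08 (SE 0.10, adjusted p = 0.722) and 0.01 (SE 0.10, adjusted p = 0.952). *Cyp2c29*, an abundant epoxygenase that CAR and PXR induce, was at 12.18, 11.27, 11.97, 11.75 and 12.17 in Control and at 12.53, 12.68, 12.49, 12.51 and 12.38 in DR 30%. Its restricted *Ercc1* Δ/- mice all lay above the freely fed ones, and it rose by 0.65 (SE 0.18, adjusted p = 0.024), a call that was lost without mouse 323 or 326 of Control or 365 of DR 30% (adjusted p = 0.0861, 0.0532 and 0.0597). WT mice were at 13.15, 13.24, 13.22, 13.31 and 13.01 in WT-Control and 13.17, 12.68, 12.81, 13.22 and 13.19 in WT-DR, and these groups overlapped with a log2 fold change of -0.17 (SE 0.18, adjusted p = 0.57). *Cyp2c70*, which makes muricholic acids in mouse bile acid synthesis, had log2 fold changes of -0.16 (SE 0.09, adjusted p = 0.323) and -0.23 (SE 0.09, adjusted p = 0.0757).

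*Cyp2c44*, an arachidonic acid epoxygenase, and *Cyp2c55*, an enzyme induced through CAR and PXR, moved otherwise. The names of the probe sets used for *Cyp2c44*, *Cyp4v3* and *Fmo5* end in s_at, which marks probes that can match several transcripts. The part of other transcripts in the values of these genes was not tested. *Cyp2c44* was at 11.79, 12.05, 11.85, 11.75 and 11.68 in WT-Control and at 10.49, 10.31, 10.27, 10.53 and 10.08 in WT-DR, and fell by 1.49 (SE 0.15, adjusted p = 2.5e-07) without overlap. In *Ercc1* Δ/- mice it was at 11.56, 12.07, 12.15, 12.15 and 11.69 without and 10.88, 11.32, 11.47, 11.85 and 11.22 with restriction, a log2 fold change of -0.58 (SE 0.15, adjusted p = 0.0162) that passed the false discovery rate but missed the fold threshold at 1.49-fold. *Cyp2c55* was at 7.24, 6.88, 7.06, 7.38 and 6.77 in WT-Control and at 6.13, 5.05, 5.35, 5.39 and 6.57 in WT-DR and fell by 1.37 (SE 0.24, adjusted p = 2.1e-04). Control mice were at 6.55, 6.15, 5.99, 6.11 and 5.92 and DR 30% mice at 6.01, 6.25, 6.17, 7.04 and 6.82, which overlapped, with a log2 fold change of 0.32 (SE 0.24, adjusted p = 0.482).

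Of the *Cyp2a*, *Cyp2b*, *Cyp2f* and *Cyp2g* genes, *Cyp2a5*, which oxidises coumarin and nicotine, was at 11.74, 11.04, 11.99, 11.88 and 12.72 in Control and 12.42, 13.14, 13.31, 13.10 and 13.19 in DR 30%. Its WT-Control mice were at 11.41, 11.79, 10.85, 11.73 and 10.49 and its WT-DR mice at 12.97, 12.54, 11.97, 11.89 and 12.23. It rose by 1.16 (SE 0.30, adjusted p = 0.015) in *Ercc1* Δ/- mice, where 1 DR 30% mouse at 12.42 lay within the Control range, and by 1.07 (SE 0.30, adjusted p = 0.013) in WT mice without overlap. The name of its probe set ends in s_at, which marks probes that can match several transcripts, and the values per gene do not hold *Cyp2a5*. The part of *Cyp2a4* transcripts in its values was not tested. *Cyp2g1*, best known from olfactory mucosa, was at 5.59, 5.52, 6.03, 6.001 and 7.09 in Control, 7.78, 7.98, 8.38, 7.50 and 7.65 in DR 30%, 5.46, 6.30, 4.93, 5.69 and 4.64 in WT-Control and 7.84, 7.26, 5.98, 6.11 and 6.59 in WT-DR. It rose by 1.81 (SE 0.35, adjusted p = 0.00176) and by 1.35 (SE 0.35, adjusted p = 0.00751), and 2 WT-DR mice lay below the highest WT-Control mouse. *Cyp2f2*, a naphthalene-oxidising enzyme of lung club cells and liver, fell in WT mice by 1.01 (SE 0.11, adjusted p = 5.4e-07), from 13.07, 13.26, 13.20, 13.07 and 13.11 to 12.28, 12.03, 12.14, 12.40 and 11.84, which did not overlap. In *Ercc1* Δ/- mice it was at 12.68, 13.01, 12.97, 12.97 and 12.56 in Control and 12.47, 12.62, 12.29, 12.79 and 12.61 in DR 30%, with a log2 fold change of -0.28 (SE 0.11, adjusted p = 0.11). *Cyp2a12* had log2 fold changes of 0.19 (SE 0.06, adjusted p = 0.0695) and -0.01 (SE 0.06, adjusted p = 0.969).

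*Cyp2b10*, the classical target of CAR, varied most of the 37 genes, over 7.12 log2 units between its lowest and highest mouse. It was at 5.32, 6.27, 5.21, 7.65 and 3.75 in WT-Control and at 8.85, 5.09, 6.83, 8.99 and 10.24 in WT-DR, where it rose by 2.36 (SE 0.66, adjusted p = 0.0136) although the mice at 5.09 and 6.83 lay within the WT-Control range. All *Ercc1* Δ/- mice were low, at 3.28, 3.35, 3.46, 3.47 and 3.62 in Control, 3.74, 4.23, 3.70, 3.48 and 3.74 in DR 30% and 3.12, 3.49, 3.42 and 3.27 in Rapa 14 ppm. The log2 fold change with restriction in *Ercc1* Δ/- mice was 0.35 (SE 0.66, adjusted p = 0.824), and the interaction was -2.01 (SE 0.94, adjusted p = 0.338) and missed the threshold. All 3 probe sets of the gene were called higher in WT-DR, but the call was lost without WT-DR mouse 425 (adjusted p = 0.0512) and when only the 2 groups were fitted (adjusted p = 0.0986). Its probe set name ends in s_at, which marks probes that can match several transcripts, and the related *Cyp2b9* rose by 4.06 (SE 0.58, adjusted p = 1.0e-04) in *Ercc1* Δ/- mice and by 7.08 (SE 0.58, adjusted p = 1.1e-08) in WT mice. *Cyp2b13* rose by 4.56 (SE 0.43, adjusted p = 1.0e-07) in WT mice and had an interaction of -3.86 (SE 0.61, adjusted p = 0.00382). The part of *Cyp2b9* and *Cyp2b13* transcripts in the *Cyp2b10* values was not tested, and *Cyp2b9* was at 8.28 to 10.98 in DR 30%.

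**Figure D2:**
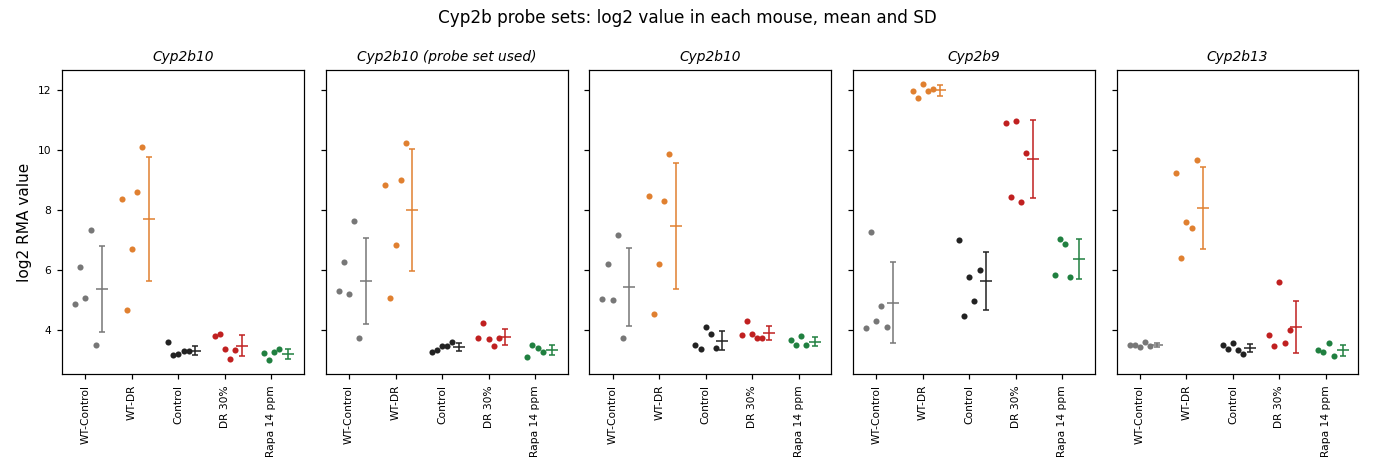
Log2 values (y axis) of the 3 probe sets of *Cyp2b10* and of *Cyp2b9* and *Cyp2b13*, with 1 point per mouse, a bar for the group mean and whiskers for the SD, by group (x axis). The *Cyp2b10* probe sets are low in every *Ercc1* Δ/- group and spread in WT-DR, from 5.09 to 10.24 in the probe set used, and *Cyp2b9* is at 8.28 to 10.98 in DR 30%.

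Of the *Cyp3a* genes, which oxidise steroids and a large share of drugs, *Cyp3a44* rose in both genotypes and *Cyp3a41a* in *Ercc1* Δ/- mice. Both are expressed mainly in female mouse liver. *Cyp3a41a* was at 6.99, 6.51, 5.86, 6.12 and 6.81 in Control and 8.27, 8.53, 7.30, 7.28 and 7.33 in DR 30%, an increase by 1.28 (SE 0.23, adjusted p = 8.8e-04) with no overlap. In WT mice its values of 6.38, 6.38, 6.10, 6.74 and 6.12 and 6.74, 6.64, 6.64, 6.65 and 6.98 gave a log2 fold change of 0.39 (SE 0.23, adjusted p = 0.268), and the interaction was 0.90 (SE 0.33, adjusted p = 0.198). *Cyp3a44* was at 5.55, 4.95, 5.20, 5.26 and 5.79 in Control, 6.66, 6.73, 6.57, 6.27 and 6.22 in DR 30%, 5.59, 5.34, 5.42, 5.87 and 5.12 in WT-Control and 6.20, 7.25, 5.59, 5.74 and 6.82 in WT-DR. It rose by 1.14 (SE 0.23, adjusted p = 0.00301) without overlap and by 0.86 (SE 0.23, adjusted p = 0.0114) with overlap. *Cyp3a13* rose in WT mice by 0.74 (SE 0.10, adjusted p = 7.1e-06), from 10.06, 10.32, 10.06, 10.07 and 10.05 to 10.66, 10.89, 10.91, 10.85 and 10.93, and had a log2 fold change of 0.36 (SE 0.10, adjusted p = 0.0184) in *Ercc1* Δ/- mice, from 10.95, 10.66, 10.72, 10.70 and 11.15 to 11.28, 11.43, 11.13, 11.08 and 11.04. The main PXR target *Cyp3a11* stayed within 13.36 to 13.92 in all 24 mice, with log2 fold changes of 0.23 (SE 0.07, adjusted p = 0.0318) and 0.10 (SE 0.07, adjusted p = 0.368). *Cyp3a25* had log2 fold changes of 0.42 (SE 0.08, adjusted p = 8.3e-04) and 0.35 (SE 0.08, adjusted p = 0.00154), which passed the false discovery rate at under 1.5-fold. *Cyp3a16*, a fetal form, was near the bottom of the scale at 2.56 to 3.36.

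*Cyp1a2*, which oxidises caffeine and aromatic amines around the central vein, fell in both genotypes. It was at 11.20, 11.61, 12.04, 11.997 and 11.54 in Control and 9.33, 10.84, 10.96, 11.51 and 10.89 in DR 30%, and fell by 0.97 (SE 0.27, adjusted p = 0.0271), with 1 DR 30% mouse above the lowest Control mouse. This call was lost without mouse 325 or 326 of Control or 362 of DR 30% (adjusted p = 0.067, 0.0677 and 0.0625) and when only the 2 groups were fitted (adjusted p = 0.105). WT-Control mice were at 12.02, 12.32, 11.83, 12.001 and 11.90 and WT-DR mice at 11.09, 10.45, 10.004, 10.33 and 10.73, which did not overlap, and the gene fell by 1.49 (SE 0.27, adjusted p = 4.0e-04). The summed level of 10 pericentral genes other than P450s was 14.36 to 14.43 in WT-Control, 14.06 to 14.24 in WT-DR, 14.47 to 14.73 in Control and 14.19 to 14.62 in DR 30%, which is lower with restriction in WT mice without overlap and overlaps in *Ercc1* Δ/- mice. That of 11 periportal genes was 15.74 to 15.85, 16.05 to 16.16, 15.76 to 15.84 and 15.95 to 16.07 in the same order of groups, which is higher with restriction without overlap in both genotypes. No pericentral gene was called with restriction, and 2 periportal genes were called higher in WT mice, beside 2.85% of all genes. The part of these levels in the changes with restriction was not tested. *Cyp1a1*, the other target of the aryl hydrocarbon receptor, stayed at 3.30 to 4.14 in all mice. *Cyp2j5*, an epoxygenase of arachidonic acid, fell in both genotypes as well. It was at 12.14, 12.20, 11.93, 12.11 and 12.14 in Control, 11.06, 11.46, 11.41, 11.85 and 11.55 in DR 30%, 12.13, 12.35, 12.32, 12.19 and 12.19 in WT-Control and 11.79, 11.22, 11.46, 11.44 and 11.73 in WT-DR. It fell by 0.64 (SE 0.11, adjusted p = 8.9e-04) and fell by 0.71 (SE 0.11, adjusted p = 1.1e-04), without overlap in either genotype.

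*Cyp4f14*, which inactivates leukotriene B4, was at 10.95, 11.36, 11.44, 11.37 and 11.07 in Control and 10.31, 10.72, 10.68, 10.90 and 10.40 in DR 30%. In WT-Control it was at 11.24, 11.40, 11.29, 11.24 and 11.33 and in WT-DR at 10.43, 10.26, 10.73, 10.53 and 10.44. It fell by 0.64 (SE 0.11, adjusted p = 6.0e-04) and fell by 0.82 (SE 0.11, adjusted p = 9.7e-06), without overlap in either genotype. *Cyp4v3*, a fatty acid omega-hydroxylase, was at 12.29, 12.80, 12.64, 12.83 and 12.50 in Control, 11.40, 11.96, 12.01, 12.41 and 11.95 in DR 30%, 12.52, 12.72, 12.55, 12.69 and 12.56 in WT-Control and 11.66, 11.29, 11.33, 11.39 and 11.35 in WT-DR. It fell by 0.66 (SE 0.13, adjusted p = 0.0021), where 1 DR 30% mouse at 12.41 lay within the Control range, and fell by 1.21 (SE 0.13, adjusted p = 6.9e-07). *Cyp2u1*, a fatty acid hydroxylase whose probe set was close to the median of the array, was at 5.07, 4.33, 4.99, 5.26 and 5.30 in WT-Control and 3.68, 3.59, 3.97, 4.03 and 4.09 in WT-DR and fell by 1.12 (SE 0.16, adjusted p = 1.8e-05). Its log2 fold change in *Ercc1* Δ/- mice was -0.49 (SE 0.16, adjusted p = 0.0514), from 4.11, 4.64, 4.02, 4.17 and 3.83 to 3.70, 3.51, 3.56, 3.70 and 3.86. *Fmo1* was the counterpart, with a rise in WT mice by 0.83 (SE 0.06, adjusted p = 5.7e-09), from 10.84, 11.16, 11.11, 10.89 and 10.95 to 11.87, 11.69, 11.87, 11.86 and 11.80. In *Ercc1* Δ/- mice its 11.55, 11.58, 11.58, 11.66 and 11.63 without and 11.94, 12.13, 11.97, 12.05 and 11.88 with restriction did not overlap either, but the log2 fold change of 0.39 (SE 0.06, adjusted p = 3.9e-04) was 1.31-fold and under the fold threshold.

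The remaining genes were not called in any comparison of restriction. *Cyp2e1*, which oxidises ethanol and acetaminophen, was among the steadiest, at 13.70 to 13.998 in all 24 mice, with log2 fold changes of 0.11 (SE 0.05, adjusted p = 0.219) and -0.06 (SE 0.05, adjusted p = 0.486). *Cyp2d10*, *Cyp2d22* and *Cyp2d26* had log2 fold changes between -0.21 and 0.13 in *Ercc1* Δ/- mice and between -0.31 and 0.30 in WT mice. *Cyp2j6* and *Cyp2r1*, a vitamin D 25-hydroxylase, had log2 fold changes of -0.29 (SE 0.09, adjusted p = 0.0556) and -0.05 (SE 0.17, adjusted p = 0.912) in *Ercc1* Δ/- mice, and *Cyp4f15* had one of -0.58 (SE 0.14, adjusted p = 0.0045) in WT mice. *Fmo5* had log2 fold changes of 0.21 (SE 0.10, adjusted p = 0.248) and 0.42 (SE 0.10, adjusted p = 0.00542). The genes of the highest levels lie near the upper end of the values on these arrays (14.51), where signals may be compressed, which was not tested.

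The interaction asked whether restriction acted differently in the 2 genotypes. *Cyp2c44*, *Cyp2c55* and *Cyp2f2* were called, all with a positive interaction, against 0.737% of all genes called positive and 0.228% called negative. The interaction was 1.68 (SE 0.33, adjusted p = 0.0173) for *Cyp2c55*, 0.91 (SE 0.21, adjusted p = 0.0371) for *Cyp2c44* and 0.72 (SE 0.15, adjusted p = 0.0215) for *Cyp2f2*. In WT mice all 3 fell with restriction, and in *Ercc1* Δ/- mice the log2 fold change was 0.32 for *Cyp2c55*, -0.58 for *Cyp2c44* and -0.28 for *Cyp2f2*. *Fmo1* passed the false discovery rate in the opposite direction, with an interaction of -0.44 (SE 0.09, adjusted p = 0.0215) that was under the fold threshold. The call of *Cyp2c44* was lost when any of 12 single mice was left out, with 321 and 327 of Control, 365, 366 and 368 of DR 30%, 401 to 404 of WT-Control and 422, 423 and 425 of WT-DR, at adjusted p of 0.052 to 0.0746. The summed level of macrophage and Kupffer cell markers was 12.14 to 12.50 in WT-Control and 11.68 to 12.19 in WT-DR, which overlapped. It was 12.47 to 13.02 in Control and 12.29 to 13.08 in DR 30%, which overlapped too. Of these 10 markers, 2 were called lower with restriction in WT mice and 1 higher in *Ercc1* Δ/- mice, beside 3.52% and 1.85% of all genes. The part of these markers in the interaction was not tested.

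Control was compared with WT-Control to describe the genotype under free feeding. Of the 37 genes, 3 were higher and 6 lower in *Ercc1* Δ/- mice, against 2.49% and 1.11% of all genes. The 6 lower genes were *Cyp2b10*, *Cyp2c29*, *Cyp2c38*, *Cyp2c39*, *Cyp2c55* and *Cyp2u1*, so that 4 of the 8 *Cyp2c* genes were lower and none was higher. *Cyp2c29* had a log2 fold change of -1.32 (SE 0.18, adjusted p = 3.9e-05), with Control at 11.27 to 12.18 and WT-Control at 13.01 to 13.31. For *Cyp2c38* the log2 fold change was -1.53 (SE 0.24, adjusted p = 2.1e-04) and for *Cyp2c39* it was -1.63 (SE 0.29, adjusted p = 7.6e-04), both without overlap in the values given above. Both rose with restriction, and in DR 30% the mean of *Cyp2c39* was 10.60 ± 0.56 (SD, n = 5) against 9.09 ± 0.38 (SD, n = 5) in WT-Control. *Cyp2c55* had a log2 fold change of -0.92 (SE 0.24, adjusted p = 0.0163) and *Cyp2u1* one of -0.84 (SE 0.16, adjusted p = 0.00117). *Cyp2b10* had one of -2.21 (SE 0.66, adjusted p = 0.0432), with Control at 3.28 to 3.62 and WT-Control at 3.75 to 7.65, so that the groups did not overlap but WT-Control mice spread widely. This call was lost when any of 14 single mice was left out, among them WT-Control mouse 404 (log2 fold change -1.70, adjusted p = 0.134), and in the other 2 probe sets (adjusted p = 0.0638 and 0.107).

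The 3 higher genes of *Ercc1* Δ/- liver were *Cyp3a13*, *Fmo1* and *Fmo5*. *Cyp3a13* had a log2 fold change of 0.72 (SE 0.10, adjusted p = 2.4e-05), with Control at 10.66 to 11.15 and WT-Control at 10.05 to 10.32. *Fmo1* had one of 0.61 (SE 0.06, adjusted p = 1.2e-06), from 10.84 to 11.16 in WT-Control to 11.55 to 11.66 in Control. *Fmo5*, a monooxygenase with Baeyer-Villiger activity, had one of 0.59 (SE 0.10, adjusted p = 7.3e-04), from 11.33, 11.77, 11.17, 11.56 and 11.10 in WT-Control to 12.11, 11.82, 11.99, 11.91 and 12.03 in Control. Restricted mice were at 12.02, 12.28, 11.97, 12.37 and 12.26 in DR 30% and 11.88, 11.69, 11.90, 11.88 and 11.70 in WT-DR, and of its 2 other probe sets 1 was called higher in Control than in WT-Control, at 0.73 (adjusted p = 0.00132), and 1 was not, at 0.38 (adjusted p = 0.268). With restriction in WT mice the first of these was also called, at 0.65 (adjusted p = 0.00158). The fold of *Fmo5* fell under 1.5 when any of 6 single mice was left out (321, 325 or 327 of Control or 401, 403 or 405 of WT-Control), at log2 fold changes of 0.52 to 0.58. *Ahr* had a log2 fold change of 0.51 (SE 0.12, adjusted p = 0.0109) and *Cyp2j6* one of 0.50 (SE 0.09, adjusted p = 0.00146), both past the false discovery rate but under 1.5-fold. *Nr1i3* had one of -0.32 (SE 0.15, adjusted p = 0.227) and *Nr1i2* one of -0.47 (SE 0.16, adjusted p = 0.0744), while the second probe set of *Nr1i2* was called lower at -0.62 (adjusted p = 0.0134). Among 10 genes of pericentral hepatocytes other than P450s, *Slc13a3* was higher and *Slc1a2* lower, and among 11 periportal genes *Apoa4* was higher and *Ctsc* lower. The summed pericentral level given above was higher in Control than in WT-Control without overlap, with a median log2 fold change of 0.36 over its genes, while the periportal one overlapped. The summed level of stellate cell markers was 12.38 to 12.53 in Control and 11.76 to 12.20 in WT-Control, and that of macrophage markers is given above. Of 10 stellate cell markers 0 were called, and of 10 macrophage markers 2 were called higher, beside 2.49% of all genes. The part of these markers in these results was not tested.

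Rapamycin was compared with both freely fed groups. Against Control, limma called no gene of the 37 higher or lower, with 4 at an unadjusted p under 0.05, against 0.0468% of all genes called higher and 0.00585% lower. The 4 were *Cyp2c38* at a log2 fold change of 0.85 (SE 0.26, adjusted p = 0.245), *Cyp2c39* at 0.996 (SE 0.31, adjusted p = 0.257), *Cyp4f14* at -0.33 (SE 0.12, adjusted p = 0.316) and *Fmo1* at 0.16 (SE 0.07, adjusted p = 0.464). The values per gene called none of them either. The 95% interval of the *Cyp2c39* difference, not adjusted for the number of genes, ran from 0.36 to 1.63. *Cyp2c39* was at 8.43, 9.21, 8.61 and 7.60 in Rapa 14 ppm and *Cyp2c38* at 8.46, 9.13, 8.62 and 7.68, and both sets overlapped with Control. *Fmo1* did not, at 11.69 to 11.82 in Rapa 14 ppm against 11.55 to 11.66 in Control. *Cyp2c37* was at 9.65, 10.98, 9.97 and 10.49 and *Nr1i3* at 8.81, 8.74, 8.47 and 8.66, which lie within or close to the Control range and below every DR 30% mouse. The largest difference in either direction among the 37 genes, that of *Cyp2c39*, compares with 3.14 (SE 0.29, adjusted p = 3.2e-07) for restriction, and these comparisons share the Control mice.

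Against WT-Control, 4 genes were higher and 4 lower in Rapa 14 ppm, against 3.01% and 1.61% of all genes. This comparison and that of Control vs WT-Control share the WT-Control mice. *Cyp2b10* (-2.31, SE 0.70, adjusted p = 0.0374), *Cyp2c29* (-1.55, SE 0.19, adjusted p = 8.7e-06), *Cyp2c55* (-1.10, SE 0.25, adjusted p = 0.00534) and *Cyp2u1* (-1.09, SE 0.17, adjusted p = 1.1e-04) were lower, as log2 fold changes. *Cyp2c29* was at 10.93, 12.24, 11.76 and 11.61, *Cyp2c55* at 5.88, 5.92, 6.38 and 5.66 and *Cyp2u1* at 3.77, 3.75, 4.05 and 4.03, each below every WT-Control mouse. *Cyp2a5* (1.06, SE 0.32, adjusted p = 0.0337), *Cyp3a13* (0.86, SE 0.10, adjusted p = 4.6e-06), *Fmo1* (0.77, SE 0.07, adjusted p = 1.0e-07) and *Fmo5* (0.69, SE 0.11, adjusted p = 2.2e-04) were higher. *Cyp2a5* was at 11.54, 12.73, 12.19 and 12.79, of which the lowest lay within the WT-Control range, and *Cyp3a13* at 10.88, 11.11, 11.08 and 10.81. The call of *Cyp2a5* was lost without mouse 536, 537 or 538 of Rapa 14 ppm or 403 or 405 of WT-Control, at adjusted p of 0.0603 to 0.115, and that of *Cyp2b10* without any of 7 mice, at 0.0506 to 0.106. Of the other probe sets of *Fmo5*, 1 was called here too, at 0.88 (adjusted p = 2.99e-04), and 1 was not, at 0.48 (adjusted p = 0.14), and neither of the other 2 of *Cyp2b10* was called (adjusted p = 0.0536 and 0.103). *Fmo1* was at 11.82, 11.80, 11.72 and 11.69 and *Fmo5* at 12.11, 11.93, 12.16 and 12.10, with every mouse above the WT-Control mice. *Cyp2c38* and *Cyp2c39*, called lower in Control, had log2 fold changes of -0.68 (SE 0.26, adjusted p = 0.0984) and -0.63 (SE 0.31, adjusted p = 0.21) in Rapa 14 ppm and were not called.

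**Figure D3:**
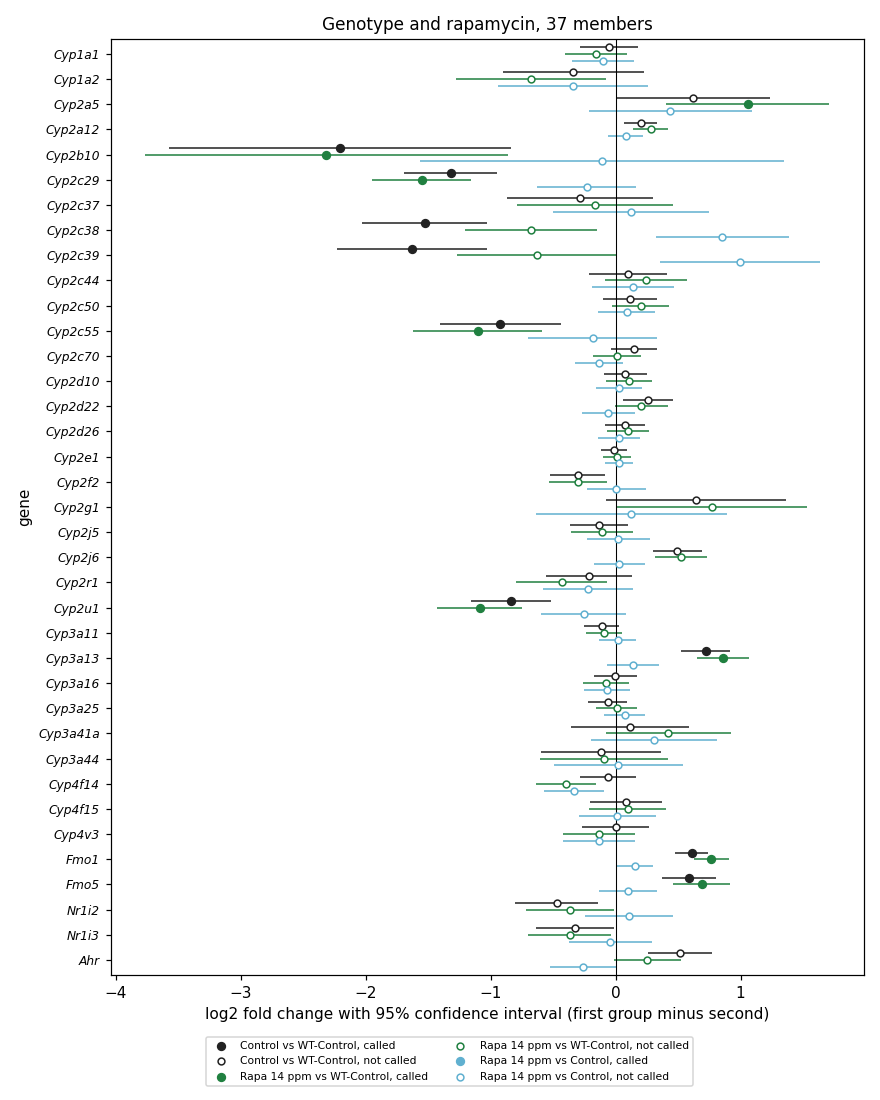
Log2 fold change with its 95% confidence interval (x axis) of the 37 genes (y axis) for Control vs WT-Control (black), Rapa 14 ppm vs WT-Control (green) and Rapa 14 ppm vs Control (blue), with filled points for called genes. No blue point is filled, and *Cyp2c29*, *Cyp2c55* and *Cyp2u1* lie to the left of 0 in both comparisons with WT-Control.

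The other genes called in at least 1 comparison had these values in Rapa 14 ppm mice. *Cyp1a2* was at 11.05, 11.07, 11.58 and 11.65, *Cyp2c44* at 12.38, 11.75, 12.001 and 12.14, *Cyp2f2* at 13.04, 12.69, 12.86 and 12.78 and *Cyp2g1* at 5.57, 6.57, 5.97 and 6.59. *Cyp2j5* was at 11.97, 12.29, 12.18 and 12.06, *Cyp3a41a* at 7.12, 6.77, 6.79 and 6.38 and *Cyp3a44* at 5.43, 5.61, 5.37 and 5.09. *Cyp4f14* was at 10.98, 10.75, 10.84 and 11.04 and *Cyp4v3* at 12.59, 12.23, 12.51 and 12.57. The Rapa 14 ppm values of these 9 genes overlapped with those of Control. The regulators *Nr1i2* and *Ahr* had means of 7.93 ± 0.44 (SD, n = 4) and 9.83 ± 0.27 (SD, n = 4), beside 7.82 ± 0.15 (SD, n = 5) and 10.09 ± 0.18 (SD, n = 5) in Control.

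**Figure D4:**
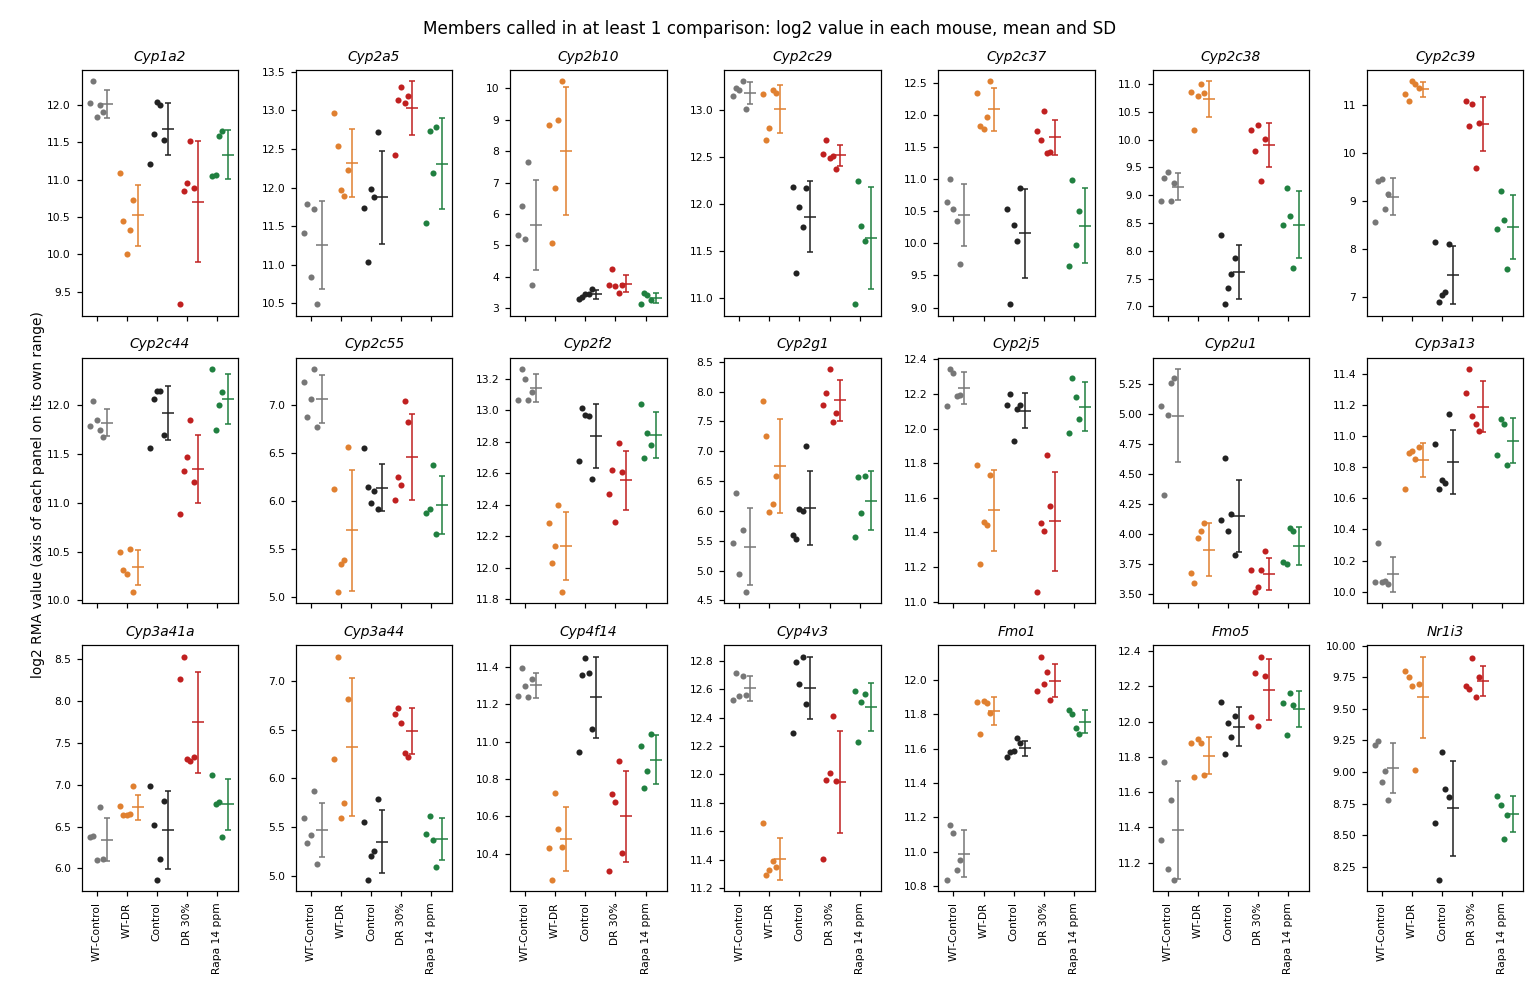
Log2 value (y axis, on a range of its own in each panel) in each mouse for the 21 genes called in at least 1 comparison, with 1 point per mouse, a bar for the group mean and whiskers for the SD, by group (x axis). *Cyp2c38* and *Cyp2c39* are lowest in Control and highest in WT-DR, and the Rapa 14 ppm mice of *Fmo1* lie above all WT-Control mice.

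Related genes were counted from lists. Over all genes, restriction raised 1.85% and lowered 1.22% in *Ercc1* Δ/- mice and raised 2.85% and lowered 3.52% in WT mice. Of 15 measured P450 and FMO genes outside the 37, restriction raised 3 and lowered 2 in *Ercc1* Δ/- mice and raised 5 and lowered 2 in WT mice. *Fmo2* rose by 2.84 (SE 0.29, adjusted p = 1.8e-06) and 4.29 (SE 0.29, adjusted p = 9.5e-10), and *Fmo4* by 0.997 (SE 0.16, adjusted p = 2.7e-04) and 1.93 (SE 0.16, adjusted p = 1.1e-08). *Cyp2d9*, a male-specific steroid hydroxylase, fell by 1.96 (SE 0.17, adjusted p = 4.2e-08) in WT mice. In *Ercc1* Δ/- mice its mean was 12.90 in Control and 11.90 in DR 30%, without overlap. Of 6 measured female-biased P450 and FMO genes, which include *Cyp3a41a* and *Cyp3a44* of the 37, 4 rose and none fell in each genotype. *Cyp17a1*, a steroid hydroxylase and lyase, rose by 1.69 (SE 0.49, adjusted p = 0.0303) and 4.86 (SE 0.49, adjusted p = 2.3e-07). All 8 measured male-biased liver genes fell in both genotypes, and 3 of them fell less in *Ercc1* Δ/- mice by the interaction, among them *Cyp4a12a*, which fell by 4.15 (SE 0.38, adjusted p = 2.5e-07) and fell by 7.87 (SE 0.38, adjusted p = 7.9e-12). *Cyp2b13* and *Cyp17a1*, the 2 female-biased genes with a called interaction, had negative ones, of -3.86 (SE 0.61, adjusted p = 0.00382) and -3.17 (SE 0.69, adjusted p = 0.0266). *Elovl3* and *Cyp4a12a* were lower in Rapa 14 ppm than in WT-Control. These lists were chosen with such changes already known and are not independent evidence of direction.

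Conjugation and hydrolysis enzymes act on the products of P450s. Of 39 measured, restriction raised 2 and lowered 6 in *Ercc1* Δ/- mice, beside 1.85% and 1.22% of all genes. In WT mice it raised 3 and lowered 10, beside 2.85% and 3.52% of all genes. *Sult1e1*, the oestrogen sulfotransferase, rose by 5.66 (SE 0.51, adjusted p = 4.5e-08) in WT mice, and *Aox3*, an aldehyde oxidase, fell by 1.01 (SE 0.18, adjusted p = 9.1e-04) and fell by 2.18 (SE 0.18, adjusted p = 1.4e-08). In Control vs WT-Control 2 were higher and 8 lower, among them the carboxylesterases *Ces1e* (-1.90, SE 0.16, adjusted p = 5.6e-08) and *Ces1f* (-1.85, SE 0.12, adjusted p = 1.1e-09) as log2 fold changes. Of all genes, 2.49% were higher and 1.11% lower in that comparison. Against WT-Control, 6 were higher and 7 lower in Rapa 14 ppm, beside 3.01% and 1.61% of all genes. The interaction was called positive in 4 and negative in 1, beside 0.737% and 0.228% of all genes. Against Control, rapamycin had 1 called gene in this list, the fatty aldehyde dehydrogenase *Aldh3a2*, at a log2 fold change of 0.77 (SE 0.14, adjusted p = 0.049). Of all genes, 0.0468% were called higher and 0.00585% lower in that comparison. *Aldh3a2* also rose by 1.14 (SE 0.14, adjusted p = 1.2e-05) with restriction in *Ercc1* Δ/- mice.

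Of 18 drug transporters, restriction raised 3 and lowered 4 in *Ercc1* Δ/- mice, beside 1.85% and 1.22% of all genes. In WT mice it raised 4 and lowered 5, beside 2.85% and 3.52% of all genes. *Slco1a4*, a transporter of bile acids and drugs induced by PXR and CAR ligands, rose by 1.99 (SE 0.23, adjusted p = 7.3e-06) and 2.52 (SE 0.23, adjusted p = 6.2e-08), while *Slco1a1* fell by 1.26 (SE 0.16, adjusted p = 1.7e-05) and fell by 1.94 (SE 0.16, adjusted p = 8.8e-09). In Rapa 14 ppm against WT-Control 3 were higher and 1 lower, beside 3.01% and 1.61% of all genes. Of 13 measured genes for electron donors and haem supply, *Uros*, an enzyme of haem synthesis, fell by 0.67 (SE 0.12, adjusted p = 8.8e-04) and fell by 0.77 (SE 0.12, adjusted p = 6.1e-05) with restriction, and no other gene of the list was called in any of the 6 comparisons. Of 25 other regulators of P450 genes, 4 rose and 2 fell with restriction in each genotype, beside the same shares of all genes as for the transporters. *Cux2*, a repressor that is female-specific in mouse liver, rose by 2.84 (SE 0.41, adjusted p = 1.0e-04) and 4.79 (SE 0.41, adjusted p = 2.0e-08). *Dbp* and *Tef*, clock-controlled factors that bind D-boxes and act on *Cyp2a5* and *Nr1i3*, rose by 1.96 (SE 0.44, adjusted p = 0.00568) and 1.26 (SE 0.31, adjusted p = 0.0101) in *Ercc1* Δ/- mice. In WT mice the mean of *Dbp* was 8.74 in WT-Control and 9.76 in WT-DR, and that of *Tef* was 9.29 and 10.30. The values of both genes overlapped between these 2 groups. *Hlf* rose by 0.79 (SE 0.13, adjusted p = 3.5e-04) in *Ercc1* Δ/- mice and 0.61 (SE 0.13, adjusted p = 0.00145) in WT mice. The time of day of sampling relative to the timed meals of restricted mice was not given in the sources used here, and its part in these results was not tested. *Nfe2l2* was higher and *Cebpb* lower in Control than in WT-Control.

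**Figure D5:**
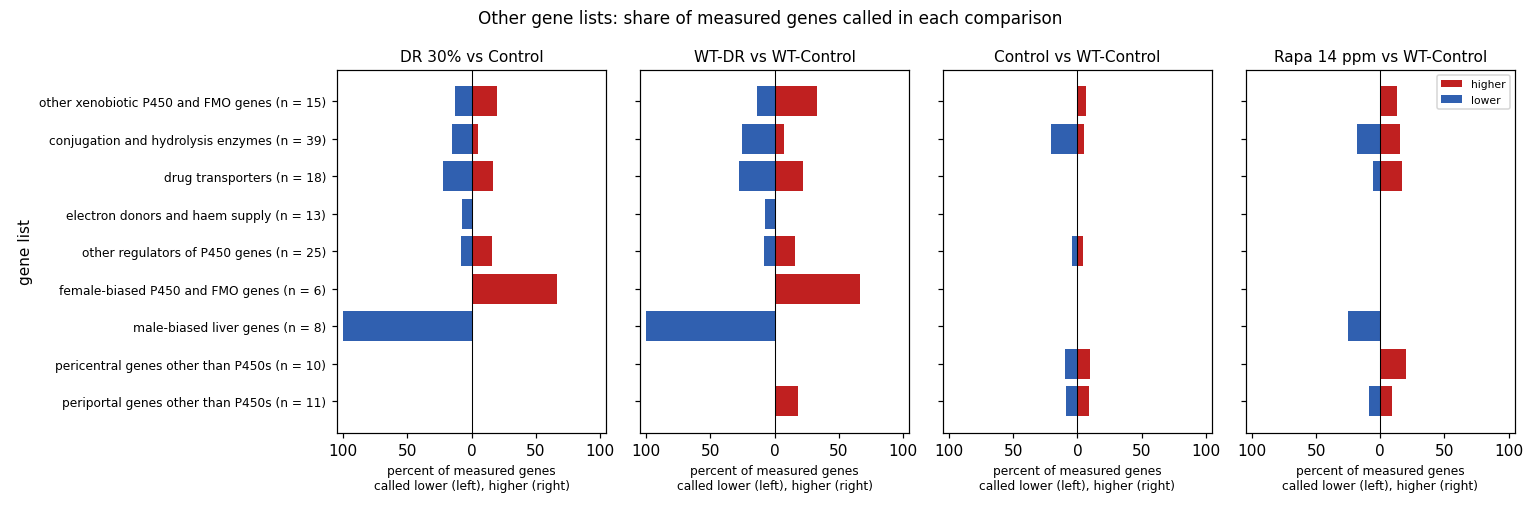
Share of the measured genes of 9 lists (y axis) called higher (red, to the right) or lower (blue, to the left) in 4 comparisons (panels, x axis in percent). All 8 male-biased genes were called lower in both restriction comparisons, and 4 of 6 female-biased genes were called higher.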

How the data were processed

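Liver RNA of 24 mice was measured on Affymetrix mouse arrays. The deposited log2 values came from RMA (background correction, quantile normalization, 1 summary per probe set) as run by the authors in the arrayanalysis.org pipeline. Its version is not given in the sources used here. Both tables of the same arrays were used, the first with 45141 probe sets and the other with values per gene for 17306 genes, and values printed here are from the first unless another is named.

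A linear model of the 5 group means, without covariates, was fitted to every probe set with limma 3.58.1 (R 4.3.3). Genes were called at a fold change of 1.5 or more and a false discovery rate under 0.05 (Benjamini-Hochberg, within a comparison). Background shares were counted over 17098 genes, each with its brightest probe set, and 28898 probe sets had 1 gene. Mice are separate animals. Promoters were aligned globally with Biopython 1.88.

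Genes called in at least 1 of the 6 comparisons and the regulators are named with their values, and from other lists up to 4 called genes per comparison with the smallest adjusted p. *Cyp2b9* and *Cyp2b13* were named beyond this after their values were seen where the rule did not reach them. The members, lists, tests and rule were chosen with earlier results of these data known. The lists were P450 and FMO genes outside the 37, conjugation and hydrolysis enzymes, drug transporters, electron donors and haem supply, other regulators, female- and male-biased genes, pericentral and periportal genes, and cell type markers.

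The alternatives were values per gene, only the groups compared, dim probe sets left out, no fold threshold, a fold of 2, median centring, quantile normalization once more, robust estimation with a variance trend, the second probe set of a gene, and leaving out each mouse in turn. The number of mice limits the precision of each difference.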

Additional observations from a re-analysis of the deposited data

Results flagged for a closer look

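Single mice stood apart from the other mice of their group in 6 of 115 gene and group pairs that were examined, while chance gives about 1 in 20. In DR 30%, mouse 362 had a low *Cyp2a5* of 12.42, with the nearest mouse at 13.10. In WT-DR, mouse 422 had a low *Cyp2c38* of 10.17 (nearest 10.78), mouse 421 a low *Cyp3a13* of 10.66 (nearest 10.85) and a high *Cyp4v3* of 11.66 (nearest 11.39), and mouse 424 a low *Nr1i3* of 9.02 (nearest 9.68). In WT-Control, mouse 402 had a high *Cyp3a13* of 10.32, with the nearest at 10.07.

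Restriction differed between the genotypes by the interaction for 3 genes, with values of 0.91 for *Cyp2c44*, 1.68 for *Cyp2c55* and 0.72 for *Cyp2f2* on the log2 scale.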

How the results depend on the processing

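At a fold change of at least 2 in place of 1.5, the number of called genes was 8 for DR 30% vs Control (13 in the main setting), 12 for WT-DR vs WT-Control (17), 1 for the interaction (3), 4 for Control vs WT-Control (9) and 5 for Rapa 14 ppm vs WT-Control (8). At that threshold 8 genes were higher and 0 lower in DR 30% vs Control, and 0 higher and 4 lower in Control vs WT-Control. Leaving out each mouse in turn gave 9 to 15 called genes for DR 30% vs Control, 17 to 19 for WT-DR vs WT-Control (17 in the main setting), 2 to 4 for the interaction, 6 to 9 for Control vs WT-Control, 6 to 9 for Rapa 14 ppm vs WT-Control and 0 for Rapa 14 ppm vs Control. Of the 50 calls of a gene in a comparison, none changed direction, and 41 of 44 were kept in the values per gene, 46 when the model held the compared groups alone, 49 with median centring, 47 with a variance trend and robust estimation, 46 with the second probe set and 50 with renewed quantile normalization. Beside the losses given with the results, some calls ended without a single mouse. Without DR 30% mouse 362, *Cyp2j5* (-0.54), *Cyp4f14* (-0.56) and *Cyp4v3* (-0.53) in DR 30% vs Control fell under 1.5-fold on the log2 scale, as did *Cyp4f14* without Control mouse 325 (-0.59) and *Fmo1* in Control vs WT-Control without WT-Control mouse 401 (0.57). Without Control mouse 323, *Cyp2a5* in DR 30% vs Control had an adjusted p of 0.0573. *Cyp3a44* in WT-DR vs WT-Control had one of 0.0553 when only those groups were fitted. The causes were not tested. No paired analysis was possible because the groups share no animal numbers. Signals near the bottom of the scale, such as those of *Cyp2b10* in *Ercc1* Δ/- mice, limit how well the size of a fold change is known.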
